A study of Mus musculus with 20 samples.

Results

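NRF2 is the transcription factor that switches on antioxidant and detoxifying enzymes, and 10 genes of its pathway were followed here, 9 commonly used targets (Nqo1, Hmox1, Gclc, Gclm, Srxn1, Txnrd1, Gsr, Slc7a11 and Osgin1) and Keap1, the protein that restrains NRF2. They were chosen by symbol for their known role in the pathway and are 10 of the 57010 genes counted. Each symbol matched 1 Ensembl identifier, and all are protein coding.

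Liver and kidney RNA was sequenced from male UM-HET3 mice, a genetically heterogeneous stock bred from several inbred strains, so that the replicates are not genetically identical. The 7c group (6 libraries per tissue) received the chemical reprogramming cocktail of repsox, valproate, tranylcypromine, DZNep, CHIR99021, forskolin and TTNPB, with 1 mg/kg/day of valproate and 0.1 mg/kg/day of each of the other 6 compounds. The vehicle group (4 libraries per tissue) received only the solvent, DMSO with polyethylene glycol. Both were dosed for 28 days from subcutaneous osmotic minipumps at 12 months of age, and the labels name the libraries biological replicates. The sequenced libraries came from males only, with 1 dose of each compound and 1 end point.

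Total counts ran from 28383359 to 30571119 in the 7c livers, 31670440 to 34153084 in the vehicle livers, 33003173 to 64872451 in the 7c kidneys and 27855849 to 39651123 in the vehicle kidneys, so that every 7c liver library was smaller than every vehicle liver library. The tissue labels were checked with marker genes, which are given as summed CPM (counts relative to library size, here scaled with TMM factors over all 20 libraries). Hepatocyte markers (Alb, Apoa1, Ttr, Serpina1c, Cps1) summed to between 82900 and 121900 CPM in livers and to between 63.2 and 266 in kidneys, and proximal tubule markers (Slc34a1, Lrp2, Slc5a2, Slc22a6, Kap) to between 27300 and 56780 in kidneys and at most 2.00 in livers. The liver of 7c replicate 6 held skeletal muscle markers at 762 CPM against 2.19 or less in the other livers, and the liver fold changes of the 9 genes tested and the medians of the lists under 7c are also given without it. Bulk RNA cannot tell fewer cells of a type from less RNA per cell.

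In resting cells KEAP1 binds NRF2 and hands it to the CUL3 ubiquitin ligase for destruction. Electrophiles and oxidants modify cysteines of KEAP1, NRF2 then accumulates, pairs with a small MAF protein and binds the antioxidant response element near its target genes, while BACH1 occupies the same element as a repressor. The targets make and recycle glutathione, run the thioredoxin system, reduce quinones and break down haem, and in liver and kidney, the tissues that meet most drugs and their metabolites, they form part of the basal defence against reactive compounds.

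The element is shown first because it is what defines a direct target. Promoter windows of RefSeq (assembly GRCm38.p6, from 250 bases before to 50 bases after a transcription start) were on hand for 7 of the 10 genes, namely Nqo1, Gclm, Srxn1, Txnrd1, Slc7a11, Osgin1 and Keap1. The core TGACNNNGC was searched on both strands and was found in 3 of these 7 genes (Gclm, Srxn1 and Txnrd1), against 14% of all 27025 genes with a window. The longer form TGACNNNGCA, which contains the core, was found in 1 of the 7 (Txnrd1), against 3.45% of genes. In the stretches below, read 5′ to 3′ along the coding strand, the capitals mark the core, which in both genes lies on the opposite strand. It begins 92 bases before the second of 3 starts of Txnrd1 and 134 bases before the start of Gclm. The whole Txnrd1 stretch spans chr10:82859084-82859152 and the whole Gclm stretch chr3:122245393-122245461, both on the plus strand.
Txnrd1: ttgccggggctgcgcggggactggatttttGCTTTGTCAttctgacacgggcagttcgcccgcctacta
Gclm: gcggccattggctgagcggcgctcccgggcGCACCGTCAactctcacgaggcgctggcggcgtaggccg

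In Srxn1 the core, GCTAGGTCA on the coding strand, began at base 29, counting the start itself as the first base (chr2:152105552-152105560). The windows of Nqo1, Slc7a11, Osgin1 and Keap1 did not hold these letters, and elements farther away were not searched. A match is a run of letters and was not tested for binding.

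In tissue of vehicle mice the 10 genes spanned a wide range of levels, and that range was not the same in liver and kidney. To compare genes with each other, levels were expressed per length as RPKM, computed from the counts with TMM scaling over all 20 libraries and the union of a gene's exons. In vehicle livers Gclc, the catalytic subunit of the first enzyme of glutathione synthesis, stood first at 94.8 ± 11.8 RPKM (SD, n = 4). It was followed by Osgin1 at 53.6 ± 25.7, Gclm at 35.1 ± 4.75, Txnrd1 at 29.1 ± 4.04, Gsr at 15.1 ± 1.12, Hmox1 at 9.84 ± 4.80, Keap1 at 9.27 ± 1.03, Srxn1 at 6.33 ± 1.22 and Nqo1 at 2.44 ± 0.314 RPKM. In that order only the steps from Txnrd1 to Gsr, from Srxn1 to Nqo1 and from Nqo1 to Slc7a11, which had no count in liver, separated all 4 livers, while every other pair of neighbours overlapped.

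Vehicle kidneys had a flatter profile. Gclc (28.2 ± 6.48 RPKM, n = 4), its partner Gclm (27.8 ± 4.86) and Gsr (26.0 ± 2.82) overlapped at the top, then came Txnrd1 (18.5 ± 2.57), Osgin1 (14.6 ± 3.88), Hmox1 (13.8 ± 2.24) and Nqo1 (12.6 ± 3.40), which overlapped from each to the next, and last Srxn1 (6.30 ± 0.429) and Keap1 (5.71 ± 0.308), which overlapped with each other. The steps from Gsr to Txnrd1, from Nqo1 to Srxn1 and from Keap1 to Slc7a11 separated all 4 kidneys. Slc7a11 was at 0.00774 ± 0.0132 RPKM. With the length of the canonical transcript in place of the exon union, Gsr stood first in vehicle kidney at 67.6 ± 7.31 RPKM and Gclc second at 51.3 ± 11.8, so the order of neighbouring genes depended on the length used.

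**Figure D1:**
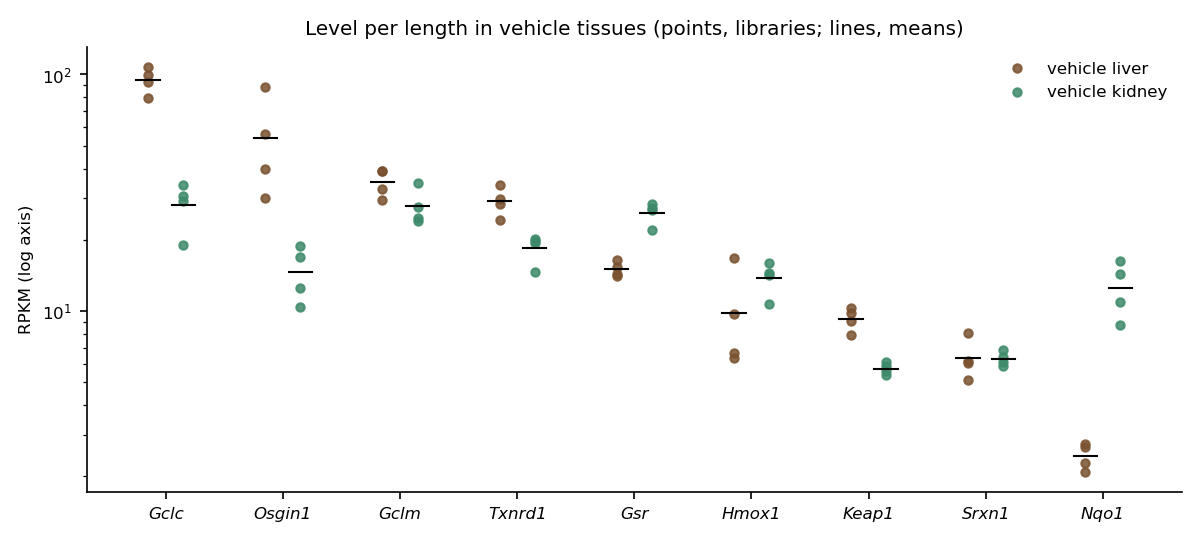
RPKM on a log axis for 9 genes in the 4 vehicle livers (brown) and the 4 vehicle kidneys (green), with 1 point per library and a line at each group's mean. Nqo1 sits at 2.08 to 2.74 in liver and 8.69 to 16.3 in kidney, while Gclc sits at 79.3 to 107 in liver and 19.0 to 34.2 in kidney, and Slc7a11, near 0, is not drawn.

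Kidney and liver were then compared in the vehicle mice, a comparison of tissues without 7c. Nqo1 and Gsr were higher in kidney, and Gclc, Osgin1, Txnrd1 and Keap1 were higher in liver, so the genes did not move as 1 block. These 6 of the 9 genes tested passed an adjusted p of 0.05 (edgeR's quasi-likelihood test with Benjamini-Hochberg adjustment over 18598 genes), 2 towards kidney and 4 towards liver, where 28.2% of all genes tested passed as higher in kidney and 24.7% as higher in liver. The same 6 had no overlap between the 4 livers and the 4 kidneys, which held for 52% of all genes tested. The tissues differed in most genes, and 6 of 9 is to be read against that background. The median log2 difference of all genes was 0.11 (0.19 with RLE size factors).

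Nqo1 (ENSMUSG00000003849, chr8:108113835-108129934 in GRCm39, minus strand) encodes the NAD(P)H quinone dehydrogenase that reduces quinones directly to hydroquinones, without reactive semiquinones. Its RPKM was 2.27, 2.67, 2.08 and 2.74 in the 4 vehicle livers and 10.9, 14.3, 16.3 and 8.69 in the 4 vehicle kidneys. Every kidney lay above every liver, by 5.15-fold (log2 difference 2.36, SE 0.216, adjusted p = 3.3e-06), the largest difference towards kidney of the 9. The 7c mice, which this test did not use, showed 2.93 ± 0.715 RPKM in liver and 12.6 ± 1.77 in kidney (n = 6 each), again without overlap.

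Glutathione genes were divided between the tissues. Gclc (ENSMUSG00000032350, chr9:77661797-77701770 in GRCm39, plus strand) was at 92.9, 99.5, 107 and 79.3 RPKM in the vehicle livers and at 34.2, 19.0, 30.5 and 29.1 in the vehicle kidneys. All livers were above all kidneys, a 3.36-fold difference (log2 -1.75, SE 0.193, adjusted p = 1.59e-05). Gclm (ENSMUSG00000028124, chr3:122039126-122065061 in GRCm39, plus strand), the modifier subunit that raises the activity of GCLC, was at 39.1, 39.0, 32.8 and 29.5 RPKM in liver and 34.7, 24.9, 27.5 and 23.9 in kidney. The groups overlapped, and its log2 difference of -0.34 (SE 0.161) missed the threshold (adjusted p = 0.100). An overlapping lncRNA on the other strand, Gm17494, had 5 to 113 counts per library, where Gclm had 4689 to 17114. A pseudogene on the same strand, Gm6061, shares 492 exon bases with Gclm and had 0 counts in every library. How reads in shared bases were counted is not given in the sources used here.

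The 2 subunits form 1 enzyme, so the ratio of their counts was followed in each library, a measure chosen after the values were seen. Gclc counts exceeded Gclm counts in every liver and fell short of them in every kidney. The ratio was 1.87, 2.01, 2.58 and 2.12 in vehicle livers and 0.776, 0.603, 0.873 and 0.956 in vehicle kidneys. The tissues did not overlap, and the log2 difference was -1.43, which is a description. Under 7c the lowest and highest ratios were 1.63 and 2.56 among livers, and 0.564 and 0.812 among kidneys. Compared with vehicle it differed by 0.018 on the log2 scale in liver (exact two-sided permutation p = 0.905) and by -0.21 in kidney (exact permutation p = 0.200).

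Gsr (ENSMUSG00000031584, chr8:34142551-34188192 in GRCm39, plus strand) encodes glutathione reductase, which returns oxidized glutathione to its reduced form with NADPH. It was at 16.5, 14.0, 15.4 and 14.3 RPKM in vehicle livers and at 27.2, 22.0, 26.6 and 28.4 in vehicle kidneys. All kidneys were above all livers, by 1.73-fold (log2 0.79, SE 0.131, adjusted p = 0.000382). A snoRNA on the same strand, Gm24727, shares 144 exon bases with Gsr and had 0 to 10 counts per library.

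Slc7a11 (ENSMUSG00000027737, chr3:49846975-50398070 in GRCm39, minus strand) is the transport subunit of the cystine/glutamate exchanger that supplies cysteine for glutathione. It had 0 counts in all 10 livers, and a count of 0 allows up to 3 counts, or 0.0878 to 0.106 CPM in these libraries, a limit that covers counting error only. Most low counts in the table, and all those of Slc7a11, were even, and if both reads of a pair were counted the limit is 6 counts, or 0.176 to 0.211 CPM. In kidney the counts were 14, 0, 8, 4, 0 and 8 in the 7c libraries and 0, 0, 20 and 2 in the vehicle libraries. It did not pass the filter of 10 counts in 50% of the libraries of a tissue and was not tested, so 9 of the 10 genes entered each test.

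In the thioredoxin system, Txnrd1 (ENSMUSG00000020250, chr10:82669785-82733546 in GRCm39, plus strand), cytosolic thioredoxin reductase, was at 28.3, 29.9, 34.0 and 24.2 RPKM in vehicle livers and 20.1, 14.7, 19.5 and 19.7 in vehicle kidneys. Livers were all above kidneys, by 1.57-fold (log2 -0.65, SE 0.154, adjusted p = 0.00414). Srxn1 (ENSMUSG00000032802, chr2:151947436-151957687 in GRCm39, plus strand), the sulfiredoxin that repairs overoxidized peroxiredoxins, was at 8.04, 5.13, 6.03 and 6.13 RPKM in liver and 5.86, 6.85, 6.39 and 6.08 in kidney. These values overlapped, with a log2 difference of -0.0077 (SE 0.151, 95% interval -0.34 to 0.33, adjusted p = 0.971) whose sign changed with the normalization.

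Hmox1 (ENSMUSG00000005413, chr8:75820241-75827217 in GRCm39, plus strand) encodes haem oxygenase 1, the inducible enzyme that opens haem to biliverdin, iron and carbon monoxide. It was at 6.33, 16.7, 9.69 and 6.66 RPKM in vehicle livers and 16.0, 14.5, 14.2 and 10.7 in vehicle kidneys. The liver of vehicle replicate 2 lay above all kidneys and the other 3 livers below them, and the log2 difference was 0.49 (SE 0.289, adjusted p = 0.175). Without vehicle replicate 2 in both tissues it was 0.92 (adjusted p = 0.00775), so that whether it passed depended on the libraries of that number. Macrophages are a known source of Hmox1, and 8 of 10 macrophage markers passed the test as higher in liver, against 24.7% of all genes tested, with 9 of 10 negative in log2 difference and Csf1r the exception. The markers summed to 186 to 505.5 CPM in vehicle livers and 84.9 to 125 in vehicle kidneys, where Marco was at 0. Their part in the result was not tested.

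Osgin1 (ENSMUSG00000074063, chr8:120152470-120173000 in GRCm39, plus strand) encodes a growth inhibitor induced by oxidative stress. Together with Hmox1 it was the most scattered of the genes in liver, at 56.1, 88.6, 29.96 and 39.9 RPKM in vehicle livers against 17.0, 18.8, 12.5 and 10.4 in vehicle kidneys. No kidney reached a liver value, a 3.66-fold difference (log2 -1.87, SE 0.320, adjusted p = 0.000483). Keap1 (ENSMUSG00000003308, chr9:21141026-21150679 in GRCm39, minus strand) was at 7.95, 9.81, 10.3 and 9.03 RPKM in vehicle livers and 5.60, 6.07, 5.35 and 5.84 in vehicle kidneys. Livers were all above kidneys, by 1.62-fold (log2 -0.70, SE 0.129, adjusted p = 0.000828). An overlapping lncRNA on the opposite strand of Keap1, Gm16754, had 11 to 53 counts per library.

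In the mice given 7c, the 6 livers and 6 kidneys did not overlap for 5 of these 6 genes, Nqo1, Gclc, Txnrd1, Gsr and Keap1, which held for 46.1% of all genes tested, and in the same direction for 78.4% of the 9668 genes that separated the vehicle tissues. The exception was Osgin1, at 21.1 to 62.1 RPKM in 7c livers and 14.5 to 22.8 in 7c kidneys. The 6 tissue calls and their directions held under each of the 12 alternatives run for this comparison. All of these scaled the libraries between tissues (TMM, RLE or DESeq2 factors). In CPM scaled within each tissue, vehicle means of Txnrd1 were 167 in liver and 164 in kidney, and those of Keap1 42.8 and 40.8. The differences of Txnrd1 and Keap1 thus depended on the scaling between tissues. Gclm, not called, was at 226 and 277, while Nqo1, Gsr, Gclc and Osgin1 kept their direction in these CPM.

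**Figure D2:**
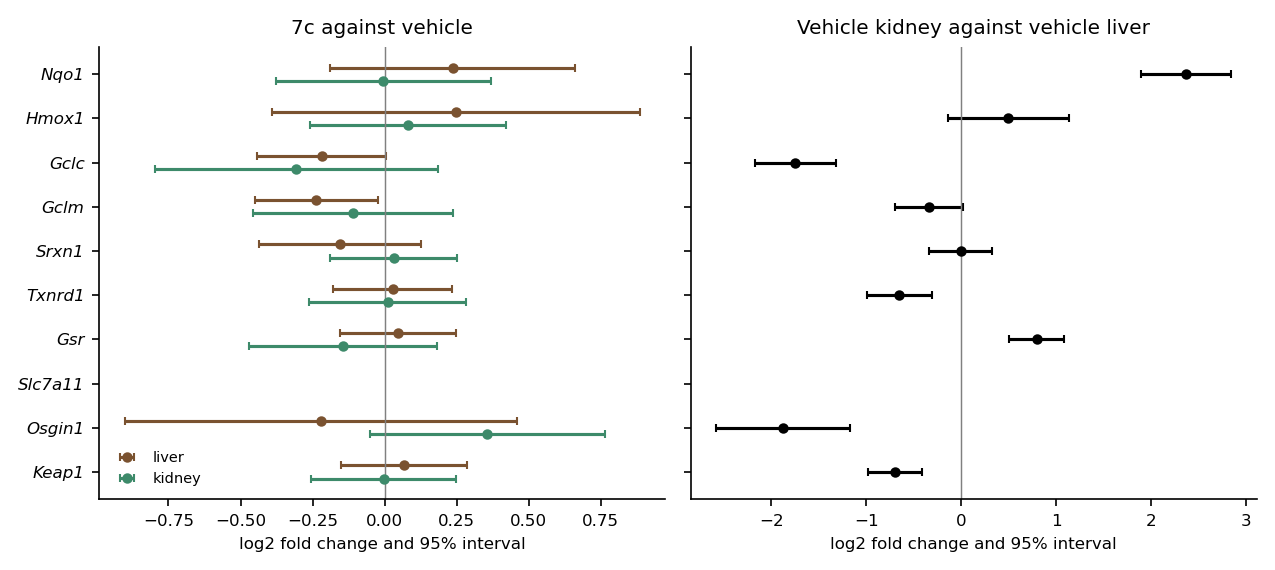
Log2 fold change with its 95% interval for each gene, at left 7c against vehicle in liver (brown) and kidney (green), at right vehicle kidney against vehicle liver (positive is higher in kidney). On the left all intervals but that of Gclm in liver (-0.45 to -0.024) include 0, and on the right those of Nqo1, Gclc, Txnrd1, Gsr, Osgin1 and Keap1 exclude it, while Slc7a11 was not tested.

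The treatment comparison asked whether 28 days of 7c moved these genes. Neither tissue showed a change that passed the test. By edgeR's quasi-likelihood test 0 of 9 genes passed in liver, where 0.00666% of all 15012 genes tested did (1 gene), and 0 of 9 passed in kidney, where 0% of 17749 did. DESeq2, limma-voom and edgeR's likelihood ratio test also called 0 of the 9 in each tissue. At an unadjusted p under 0.05 stood 1 of the 9 genes in liver (Gclm) against 565 of all genes, and 0 of the 9 in kidney against 463 of all genes. None of the 9 had 7c and vehicle values that did not overlap, which 0.719% of all genes tested had in liver and 0.716% in kidney. For 7c against vehicle, levels of single genes are CPM scaled within a tissue, which do not compare liver with kidney. Sums of markers, and levels of list genes set between tissues, are CPM scaled over all 20 libraries.

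**Figure D3:**
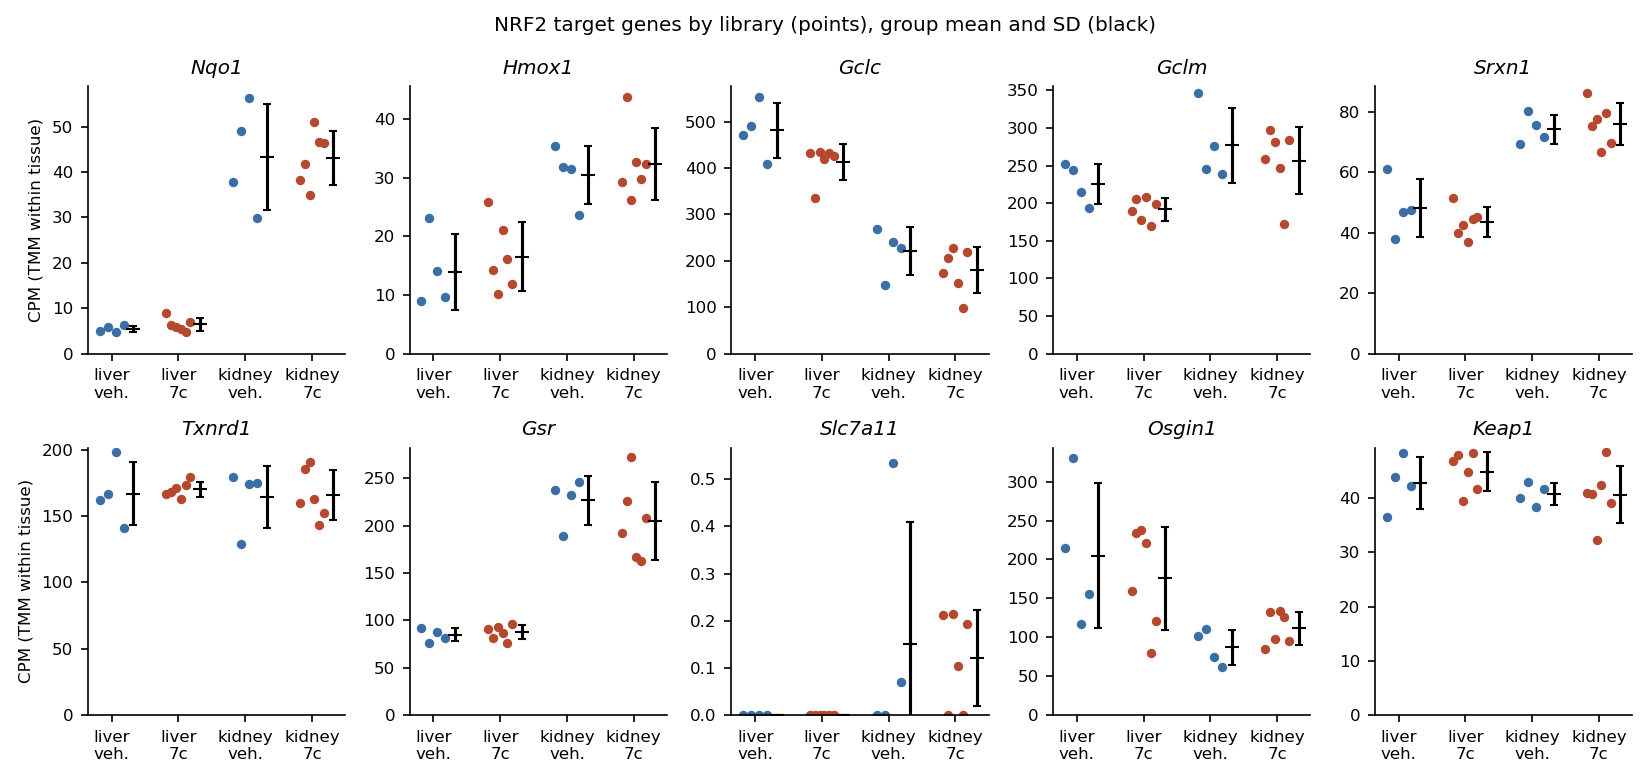
CPM of each of the 10 genes by library (points) in vehicle (blue) and 7c (red) livers and kidneys, with the group mean and SD in black. The 7c and vehicle points of a tissue overlap for every gene, for example Gclm in liver at 169 to 208 CPM under 7c and 193 to 252 under vehicle, and CPM are scaled within each tissue.

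The glutathione synthesis genes gave the lowest p in liver, both with lower means under 7c. Gclm was at 252, 244, 215 and 193 CPM in the vehicle livers and at 169 to 208 (median 194) in the 7c livers. Of the 4 vehicle livers 3 lay above all 7c livers, and 3 of the 6 7c livers lay below all vehicle livers, so that the groups overlapped around vehicle replicate 4. The log2 fold change was -0.24 (SE 0.0990, 95% interval -0.45 to -0.024), with an unadjusted p of 0.0319 that became an adjusted p of 1 over all genes by edgeR's quasi-likelihood test. In an exact permutation test over all 210 divisions of the libraries into 6 and 4, p was 0.0381, or 0.557 adjusted over the 18 tests of 9 genes in 2 tissues. Gclm ranked 328th by p among the 15012 genes. Without the liver of 7c replicate 6 its log2 fold change was -0.25, and the unadjusted p no longer lay under 0.05 without 7c replicate 3 or 5 or vehicle replicate 1 or 2.

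Gclc was at 470.5, 490.3, 554 and 409 CPM in the vehicle livers and at 336 to 434 (median 429) in the 7c livers. Of the 7c livers 5 lay close together, between 419 and 434 CPM, and replicate 2 stood below them at 336. The log2 fold change was -0.22 (SE 0.104, 95% interval -0.44 to 0.0064, unadjusted p = 0.0560, adjusted p = 1), and the exact permutation p was 0.0619. Without 7c replicate 2 the log2 fold change was -0.16, without vehicle replicate 3 it was -0.14, and without 7c replicate 6 it was -0.23. The 7c and vehicle livers also differed in library size, as given above, and the part of depth in these differences was not tested.

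In kidney Gclc varied more. It was at 269, 148, 241 and 228 CPM in vehicle kidneys and 97.3 to 228 (median 190.0) in 7c kidneys. The kidney of 7c replicate 5 was the lowest, and the log2 fold change of -0.31 (SE 0.226, 95% interval -0.80 to 0.18, adjusted p = 0.997) came to -0.18 without it. Gclm in kidney was at 347, 246, 276 and 239 CPM under vehicle and 173 to 298 (median 270.2) under 7c, with a log2 fold change of -0.11 (SE 0.160, adjusted p = 0.997).

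Gsr was at 92.3, 76.4, 88.2 and 81.8 CPM in vehicle livers and 76.3 to 96.3 (median 88.9) in 7c livers, and its log2 fold change of 0.046 had a 95% interval of -0.16 to 0.25. In kidney it was at 238, 189, 233 and 247 CPM under vehicle and 163 to 273 (median 199.97) under 7c, with a log2 fold change of -0.15 (95% interval -0.47 to 0.18). Both ranges under 7c reached beyond the vehicle range at each end.

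Txnrd1 had nearly equal means in liver, at 167 ± 23.6 CPM under vehicle (n = 4) and 170.3 ± 5.64 under 7c (n = 6). The vehicle livers were at 162, 166, 198 and 141 CPM and the 7c livers at 163 to 179 (median 169.6), so the 7c values lay inside the vehicle range. The log2 fold change was 0.028 (95% interval -0.18 to 0.23). In kidney vehicle values were 179, 129, 174 and 175 CPM and 7c values 143 to 191 (median 161), with a log2 fold change of 0.011 (95% interval -0.26 to 0.28).

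Srxn1 was at 61.0, 37.9, 46.7 and 47.4 CPM in vehicle livers and 36.8 to 51.3 (median 43.5) in 7c livers, with a log2 fold change of -0.15 (95% interval -0.44 to 0.13) that was -0.021 without vehicle replicate 1 and -0.25 without vehicle replicate 2. In kidney it was at 69.2, 80.0, 75.6 and 71.6 CPM under vehicle and 66.5 to 86.0 (median 76.4) under 7c, and its log2 fold change of 0.031 had a 95% interval of -0.19 to 0.25. It showed the lowest spread of the 9 genes among 7c kidneys, a coefficient of variation of 9.20%.

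Nqo1, often read as the standard report of NRF2 activity, was at 5.05, 5.76, 4.72 and 6.20 CPM in vehicle livers, or 153 to 212 counts, and at 4.69 to 8.98 CPM (median 6.13) in 7c livers. Of the 7c livers 3 lay above all vehicle livers and 1 below them. The log2 fold change was 0.24 (SE 0.197, 95% interval -0.19 to 0.66, adjusted p = 1), and leaving out 7c replicate 1 it was 0.12. In kidney it was at 37.8, 49.0, 56.4 and 29.9 CPM under vehicle, which enclosed all 7c kidneys at 34.9 to 51.0 (median 44.2), and the log2 fold change was -0.0045 (95% interval -0.38 to 0.37).

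Hmox1 was at 9.004, 23.1, 14.0 and 9.65 CPM in vehicle livers and 10.1 to 25.9 (median 15.2) in 7c livers. Both groups spanned more than 2-fold, and the log2 fold change of 0.25 had a 95% interval of -0.39 to 0.89. Vehicle replicate 2 carried much of the vehicle mean, and without it the log2 fold change was 0.61 (adjusted p = 0.996), while without 7c replicate 1 it was 0.075. In kidney it was at 35.4, 31.8, 31.4 and 23.6 CPM under vehicle and 26.1 to 43.9 (median 31.1) under 7c, with a log2 fold change of 0.083 (95% interval -0.26 to 0.42).

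Osgin1 had the largest positive log2 fold change of the 9 genes in kidney and a negative one in liver. In kidney it was at 101, 111, 74.6 and 61.7 CPM under vehicle and 85.05 to 133 (median 111) under 7c. Of the 7c kidneys 3 lay above all vehicle kidneys, and 2 of the 4 vehicle kidneys lay below all 7c kidneys. The log2 fold change was 0.36 (SE 0.188, 95% interval -0.052 to 0.76, unadjusted p = 0.0816, adjusted p = 0.997), and the exact permutation p was 0.119. Leaving out 1 library at a time gave 0.22 (without vehicle replicate 4) to 0.50 (without vehicle replicate 2). Fat cell markers (Adipoq, Plin1, Cfd, Lep, Fabp4) stood higher in the same 7c kidneys. All 5 were detected in both groups and had positive fold changes, 0 were called, and they summed to 44.4 to 108 CPM (scaled over all 20 libraries) under 7c and 28.7 to 39.5 under vehicle, without overlap. Their part in the Osgin1 value was not tested.

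In liver Osgin1 ran from 79.5 to 238 CPM (median 190.3) under 7c, and was at 215, 330.5, 117 and 156 under vehicle. The log2 fold change was -0.22 (SE 0.316, 95% interval -0.90 to 0.46), and it turned to 0.11 without vehicle replicate 2. The coefficient of variation was 37.7% among 7c livers and 45.5% among vehicle livers, close to that of Hmox1 in vehicle livers (46.5%) and above those of the other 7 genes tested.

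Keap1 was at 36.6, 43.9, 48.3 and 42.3 CPM in vehicle livers and 39.4 to 48.3 (median 45.8) in 7c livers, with a log2 fold change of 0.068 (95% interval -0.15 to 0.29). In kidney it was at 40.1, 42.9, 38.4 and 41.6 CPM under vehicle and 32.2 to 48.5 (median 40.9) under 7c, with a log2 fold change of -0.0032 (95% interval -0.26 to 0.25). The regulator was therefore at overlapping levels in each group of a tissue.

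Leaving out the liver of 7c replicate 6, the one with muscle markers, no liver gene changed sign and 0 of the 9 were called. The log2 fold changes were then 0.21 for Nqo1, 0.33 for Hmox1, -0.16 for Srxn1, 0.014 for Txnrd1, 0.018 for Gsr, -0.13 for Osgin1 and 0.090 for Keap1, beside those of Gclc and Gclm given above.

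The response to 7c was also compared between the tissues by the interaction term of a fit to all 20 libraries. None of the 9 genes passed by edgeR's quasi-likelihood test, DESeq2, limma-voom or edgeR's likelihood ratio test. By the quasi-likelihood test 0.00706% of all 14163 genes tested passed. At an unadjusted p under 0.05 in that test stood 0 of the 9, against 353 of all genes. Osgin1 had the largest term, 0.59 on the log2 scale (SE 0.407, 95% interval -0.26 to 1.44, adjusted p = 1), and 0.37 without vehicle replicate 2. For Gclc it was -0.078 (SE 0.263) and for Nqo1 -0.23 (SE 0.257), and that of Nqo1 ranged from -0.44 (without vehicle replicate 4) to -0.021 (without vehicle replicate 3).

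Partners of NRF2 were then read from the same fits. Nfe2l2, the gene of NRF2 itself, was at 77.3 ± 5.78 CPM in vehicle livers (n = 4) and 74.5 ± 10.04 in 7c livers (n = 6), and at 73.7 ± 4.63 in vehicle kidneys and 68.3 ± 19.8 in 7c kidneys. Its log2 fold change under 7c was -0.053 (95% interval -0.29 to 0.19) in liver and -0.11 (95% interval -0.56 to 0.34) in kidney, where 1 of the 7c libraries was as low as 34.6 CPM. Bach1, the competing repressor, had log2 fold changes of 0.056 (SE 0.115) in liver and -0.20 (SE 0.215) in kidney. Sqstm1, an autophagy receptor that sequesters KEAP1 and is itself an NRF2 target, had log2 fold changes of 0.028 (SE 0.0845) in liver and 0.026 (SE 0.0965) in kidney. The adjusted p of all 3 was 1 in liver and 0.997 in kidney. Between vehicle tissues Nfe2l2 (log2 -0.70, SE 0.123, adjusted p = 0.000590) and Bach1 (log2 -0.84, SE 0.181, adjusted p = 0.00242) were higher in liver, and Sqstm1 (log2 -0.24, SE 0.128, adjusted p = 0.146) did not pass. Scaled over all 20 libraries, Nfe2l2 was at 95.5 ± 9.14 CPM in vehicle livers and 58.8 ± 3.44 in vehicle kidneys. The CPM given before are scaled within a tissue, so its tissue difference depended on the scaling between tissues.

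Of 16 regulators of the pathway 0 passed under 7c in either tissue. Their median log2 fold change was 0.042 in liver and -0.092 in kidney, against medians of 0.0017 and -0.0057 over all genes tested. Mafg, a small MAF partner of NRF2, had the lowest p in liver (log2 0.14, SE 0.0917, adjusted p = 1), and Mafk, another small MAF, in kidney (log2 -0.17, SE 0.125, adjusted p = 0.997). Between vehicle tissues 2 of the 16 were higher in kidney and 4 in liver, against 28.2% and 24.7% of all genes tested (median log2 -0.27, all genes 0.11). Mafk (0.69) and Cul3, the ligase scaffold (0.36), were the 2 higher in kidney, and the repressors Bach2 (-1.18) and Bach1 had the largest differences towards liver.

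The wider glutathione genes (synthesis, transport and use, Gclc, Gclm and Gsr included) gave 0 calls under 7c among 19 tested in liver and 20 in kidney, with median log2 fold changes of 0.054 and 0.045. Lowest p stood at Gpx1, the cytosolic glutathione peroxidase, in liver (log2 0.29, SE 0.104, unadjusted p = 0.0158, adjusted p = 1) and at Glrx5, a mitochondrial glutaredoxin, in kidney (log2 0.26, SE 0.168, adjusted p = 0.997). By tissue 8 of 20 were higher in kidney and 5 in liver, against 28.2% and 24.7% of all genes tested, with a median of 0.0041. Gpx3, the plasma glutathione peroxidase that kidney makes, was at 26340 ± 8928 CPM (scaled over all 20 libraries) in vehicle kidneys and 5.48 ± 1.00 in vehicle livers (log2 12.23, SE 0.386). Ggt1, which cleaves extracellular glutathione at the tubule brush border, had no count in vehicle livers and 1713 ± 654 CPM in vehicle kidneys, at least 15500-fold higher when each liver is set at 3 counts, or 7750-fold at 6 counts if both reads of a pair were counted. Mgst1, a microsomal glutathione transferase, was at 3171 ± 326 CPM in vehicle livers and 33.2 ± 5.73 in vehicle kidneys (log2 -6.58, SE 0.213), and Gclc had the next largest difference towards liver among genes of at least 10 CPM.

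Glutathione S-transferases, which conjugate electrophiles and include many NRF2 targets, were the most one-sided list between tissues. Of 22 tested, 19 were higher in liver and 2 in kidney, against 24.7% and 28.2% of all genes tested, with a median log2 difference of -2.41. Gstm3 was at 138 ± 64.2 CPM in vehicle livers and 1.06 ± 0.242 in vehicle kidneys (log2 -7.00, SE 0.365), and Gstm6 at 233 ± 43.8 and 2.19 ± 1.25 (log2 -6.73, SE 0.383). The 2 higher in kidney were Gstm5 (log2 3.18, SE 0.304) and Gstt2 (log2 1.28, SE 0.234). Members of the Gstm and Gstp clusters are similar in sequence, and how reads shared by such genes were counted is not given in the sources used here, so single members are uncertain. Under 7c 0 of 22 passed in liver (median 0.067) and 0 of 20 in kidney (median 0.032), with the lowest p at Gstp2 in liver (log2 -0.46, SE 0.212, adjusted p = 1) and Gsto2 in kidney (log2 0.48, SE 0.400, adjusted p = 0.997).

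Thioredoxins, peroxiredoxins and their partners (18 tested) had 4 genes higher in kidney and 8 in liver, against 28.2% and 24.7% of all genes tested, with a median of -0.27. Sesn2, a stress-induced sestrin, was at 64.6 ± 8.09 CPM in vehicle kidneys and 7.84 ± 1.95 in vehicle livers (log2 3.04, SE 0.197), and Prdx5 was also higher in kidney (1.74). Prdx4 (-2.42), the peroxiredoxin of the secretory pathway, and Prdx6 (-1.996) were higher in liver. Under 7c none of the 18 passed in either tissue (medians 0.039 in liver and 0.075 in kidney), and the lowest p were those of Txn2, mitochondrial thioredoxin, in liver (log2 0.14, SE 0.0782) and Txnip, the thioredoxin inhibitor, in kidney (log2 0.23, SE 0.163).

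The NADPH that feeds these reductases comes mainly from dehydrogenases, and the list also held enzymes that are not dehydrogenases, such as Tkt. Of 11 tested, 5 were higher in kidney and 3 in liver, against 28.2% and 24.7% of all genes tested (median 0.28). G6pdx, the first step of the pentose phosphate pathway, was at 34.5 ± 5.16 CPM in vehicle kidneys and 3.96 ± 1.52 in vehicle livers (log2 3.12, SE 0.267), and mitochondrial Idh2 differed by 1.66. Aldh1l1 (-1.73), a folate enzyme, and cytosolic Idh1 (-0.66) were higher in liver. Under 7c in liver 10 of 11 had a positive log2 fold change (median 0.14), against 50.4% of all genes tested, but 0 passed, the lowest p being that of Aldh1l1 (log2 0.23, SE 0.0898, unadjusted p = 0.0218, adjusted p = 1). In kidney 6 of 11 were positive (median 0.052), 0 passed, and Tkt had the lowest p (log2 0.20, SE 0.123). Most other lists also leaned positive in liver, as given below.

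Genes of haem breakdown and iron (12 tested) had 3 higher in kidney and 6 in liver, against 28.2% and 24.7% of all genes tested, with a median of -0.58. Biliverdin reductase Blvra (1.89) and the haem transporter Slc48a1 (1.04) had the largest differences towards kidney. The plasma proteins hemopexin (Hpx, -11.39) and haptoglobin (Hp, -10.28), made by hepatocytes, were higher in liver. Under 7c 0 of 12 passed in liver (median 0.099) or kidney (median 0.069), with Hpx lowest by p in both (log2 0.20, SE 0.0955 in liver and -1.20, SE 0.554 in kidney, where it was at 1.41 ± 0.387 CPM under vehicle). Hepatocyte markers in the same kidneys had 5 of 5 negative log2 fold changes with 0 called, and summed to 63.2 to 266 CPM (scaled over all 20 libraries) under 7c and 163 to 236 under vehicle, and their part in the Hpx value was not tested.

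Other genes known to respond through the antioxidant element, such as quinone reductases, aldehyde oxidases and efflux pumps (24 tested, Nqo1 and Osgin1 included), had 6 higher in kidney and 15 in liver, against 28.2% and 24.7% of all genes tested, with a median of -1.69. The aldehyde oxidases Aox3 (-10.85) and Aox1 (-8.68), similar in sequence, were higher in liver, and the efflux pumps Abcc4 (3.43) and Abcc1 (2.45) in kidney. Under 7c 0 of 22 passed in liver (median 0.066) and 0 of 24 in kidney (median 0.13). The lowest p were those of Ces1g in liver (log2 0.24, SE 0.117) and Nqo2, a quinone reductase related to Nqo1, in kidney (log2 -0.32, SE 0.111, unadjusted p = 0.0128, adjusted p = 0.997).

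Superoxide and peroxide enzymes (9 tested) had 3 higher in kidney and 4 in liver, against 28.2% and 24.7% of all genes tested (median -0.026). Besides Gpx3, extracellular Sod3 was higher in kidney (4.23), and catalase (Cat, -2.59) and Sod1 (-1.12) were higher in liver. Under 7c 8 of 9 were positive in liver (median 0.15) and 7 of 9 in kidney (median 0.073), against 50.4% and 49.0% of all genes tested, and 0 passed in either, the lowest p being those of Gpx1 in liver and of Ccs, the copper chaperone of SOD1, in kidney (log2 0.28, SE 0.248). Red blood cell markers (Hba-a1, Hba-a2, Hbb-bs, Hbb-bt, Alas2) had 4 of 5 positive log2 fold changes in liver and 5 of 5 in kidney, with 0 called. They summed to 487 to 1597 CPM (scaled over all 20 libraries) in 7c livers and 545 to 701 in vehicle livers. In kidneys the sums were 374 to 1808 under 7c and 246 to 1053 under vehicle, and their part was not tested.

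Targets of ATF4, which shares Slc7a11 with NRF2, had 6 of 15 tested higher in kidney and 6 in liver, against 28.2% and 24.7% of all genes tested (median -0.47). Psat1, a serine synthesis enzyme, and Vldlr, a lipoprotein receptor, were higher in kidney (5.28 and 5.22), and Cebpb (-1.78) and Atf4 (-1.07) in liver. Under 7c 0 of 14 passed in each tissue (medians 0.014 in liver and 0.12 in kidney). Cebpb in liver (log2 0.68, SE 0.228, unadjusted p = 0.0106, adjusted p = 1) and Atf3 in kidney (log2 1.17, SE 0.367, unadjusted p = 0.00731, adjusted p = 0.997) had the lowest p. Atf3 in kidney was low, at 0.851 ± 0.368 CPM under vehicle and 1.93 ± 0.688 under 7c. In liver its log2 fold change under 7c was -0.68 (SE 0.463). The interaction term passed for 0 genes of any of these 9 lists.

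Over all livers, positive log2 fold changes under 7c numbered 11 of 16 for regulators, 15 of 19 for glutathione genes and 16 of 22 for transferases. They numbered 14 of 18 for thioredoxin genes, 9 of 12 for haem and iron, 13 of 22 for other antioxidant genes and 7 of 14 for ATF4 targets. Some genes stand in several lists. Without the liver of 7c replicate 6 the 9 lists again held 0 calls in liver. The median of the NADPH genes was then 0.078 with 9 of 11 positive, and that of the superoxide and peroxide enzymes 0.14 with 8 of 9 positive. Gpx1 was at a log2 fold change of 0.34 (SE 0.100), Aldh1l1 at 0.21 (SE 0.0952), Cebpb at 0.61 (SE 0.233) and Gstp2 at -0.48 (SE 0.227). The other medians were 0.049 for the regulators, 0.061 for the glutathione genes, 0.081 for the transferases, 0.022 for the thioredoxin genes, 0.074 for haem and iron, 0.034 for the other antioxidant genes and 0.0056 for the ATF4 targets.

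Whether the genes varied together from mouse to mouse was then described. Pearson's r of log2 CPM was computed for all 36 pairs of the 9 genes in each tissue over 10 libraries, and its permutation p (100000 resamples) was adjusted over the 72 pairs. In liver 0 pairs passed, and the highest r was 0.63, between Hmox1 and Keap1 (permutation p = 0.0511, adjusted p = 0.368, Spearman's rho 0.612). Gclc and Gclm, the 2 subunits, had r of 0.36 in liver (adjusted permutation p = 0.707, rho 0.345).

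In kidney 1 pair passed, Gclc with Gsr, and 3 pairs passed with values centred by treatment. The share of all gene pairs in kidney that reach such r was not computed, so the count has no background beside it. Its r was 0.87 (permutation p = 0.00064, adjusted p = 0.0461), with rho of 0.879 (permutation p = 0.00175, adjusted p = 0.126), r of 0.84 without the 2 kidneys farthest from the median of Gclc, and 0.83 within the 6 7c kidneys. The rank correlation did not pass, so the call depended on the measure. Gclc with Gclm had r of 0.87 (permutation p = 0.0014, adjusted p = 0.0504) and rho of 0.648 (adjusted p = 0.359), and r was 0.62 without the 2 farthest kidneys. Keap1 ran opposite to Gsr in value, with r of -0.79 (permutation p = 0.0029, adjusted p = 0.0696) and -0.91 within the 7c kidneys. The vehicle group, with 4 kidneys, was too small for a value of its own.

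**Figure D4:**
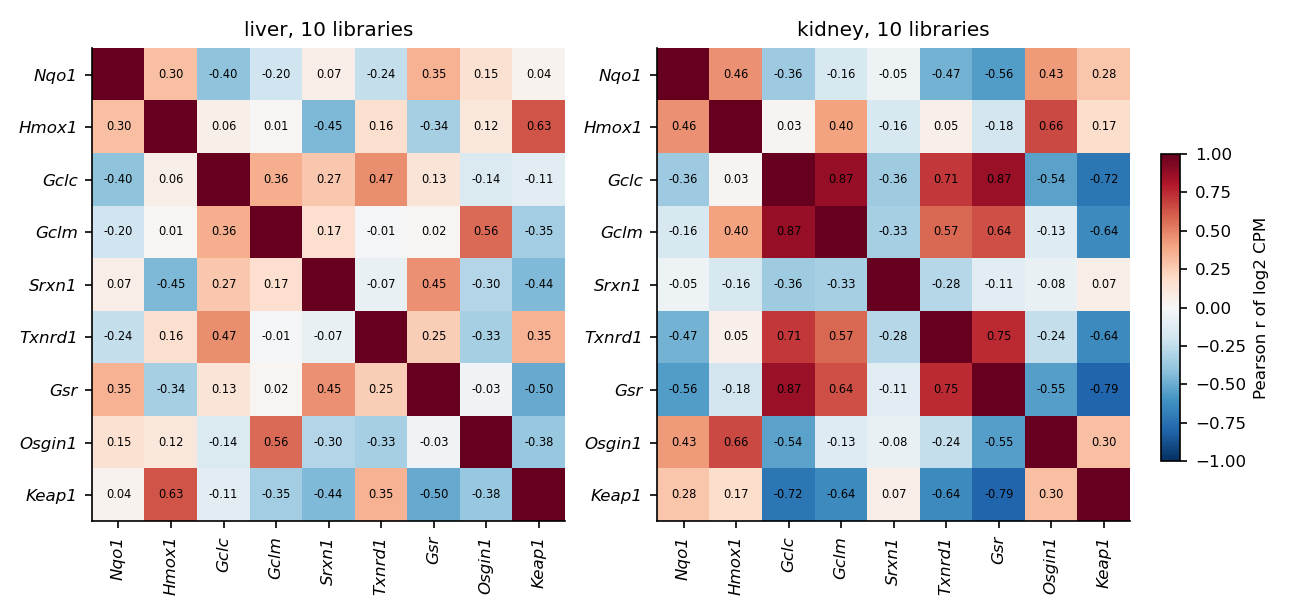
Pearson's r of log2 CPM for each pair of the 9 tested genes over 10 livers (left) and 10 kidneys (right), with red positive and blue negative. Gclc, Gclm, Txnrd1 and Gsr form a red block in kidney with r of 0.57 to 0.87, where the same pairs in liver run from -0.012 to 0.47, a set picked out after the values were seen and a difference between tissues that was not tested. Pairs of other genes were not computed.

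**Figure D5:**
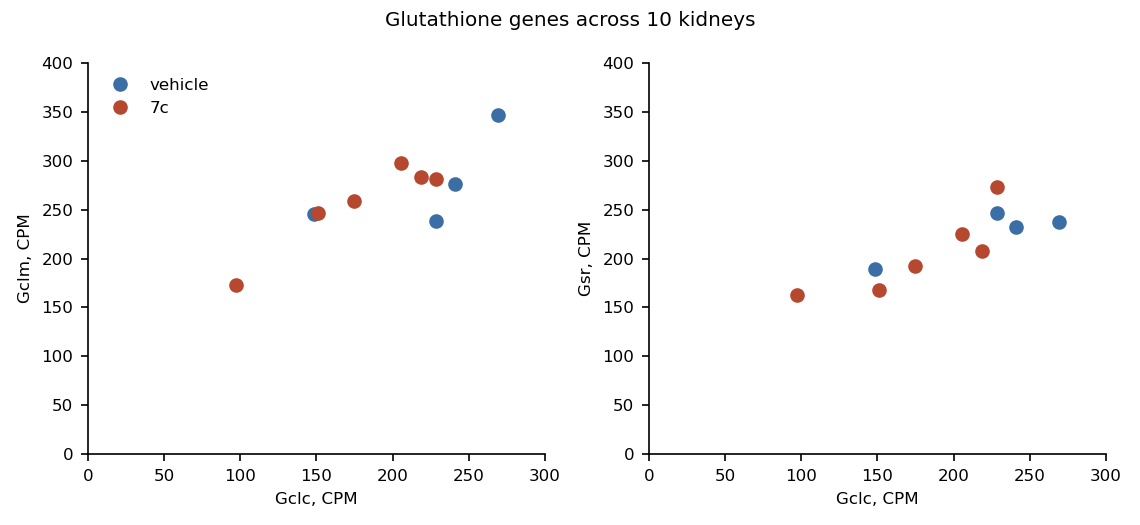
CPM of Gclc (x axis) against Gclm (left) and Gsr (right) in the 10 kidneys, vehicle in blue and 7c in red. The kidney of 7c replicate 5 is lowest on all axes, with Gclc at 97.3, Gclm at 173 and Gsr at 163 CPM, and the other 9 lie between 148 and 269 CPM for Gclc.

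As a description of likeness, the scaled log2 CPM of the 8 targets tested was averaged in each library and compared with every other gene of at least 5 CPM. In liver, over 10 libraries and 9372 genes, the highest r belonged to Rusc1 (0.88), Hes1 (0.875), Sucnr1 (0.87), Id2 (0.86) and ENSMUSG00000112366 (0.85). In kidney, over 10 libraries and 10804 genes, it belonged to Cebpz (0.94), Sim1 (0.92), Creb1 (0.92), Sytl2 (0.91) and Nipbl (0.89). All values of a tissue come from the same 10 libraries, and no test was made of them.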

How the data were processed

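RNA of liver and kidney was analysed in 20 libraries (10 per tissue), with groups from the labels. Per the submitters' processing notes, the authors aligned reads with STAR 2.7.11b to GRCm39 and counted them with featureCounts 2.0.6; the deposited values are raw counts per gene, not normalized. Annotation release, strand setting and treatment of reads with several positions are not given in the sources used here. Counts from 1 to 20 were even in 75.1% to 83.2% of cases per library, as counting both reads of a pair would give, which the sources used here do not state. The limit given for a count of 0 covers counting error only.

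Symbols and positions came from GENCODE vM39 by Ensembl identifier (56310 of 57010 genes matched), promoter windows from RefSeq. Tested were genes with at least 10 counts in 50% of a tissue's libraries. For the tissue comparison the filter was to be met in either tissue, 7c libraries included, and for the interaction in both. The test was that of edgeR 4.0.16 in R 4.3.3 (TMM, quasi-likelihood F-test, Benjamini-Hochberg, threshold 0.05). The filter, edgeR and a separate fit per tissue follow the study's methods, and TMM and the F-test were chosen here. Log2 CPM used a prior count of 2. Exact permutation tests were two-sided over 210 divisions, with a smallest p of 0.00476. The procedure was tested on simulated data with a small share of genes changed. That test does not cover the scaling between tissues, which differed in most genes. Alternatives were RLE factors, no filter, filterByExpr, DESeq2 1.42.0, limma-voom (limma 3.58.1), the likelihood ratio test, the replicate number as a block, joint fits, a prior count of 0.5 and leaving out each replicate. The exon length, the Gclc to Gclm ratio and the liver lists without 7c replicate 6 were added after the data were seen.

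The genes, lists and tests were chosen with earlier results of these data known. Named from each list were up to 2 genes per tissue direction with the largest difference among those past the threshold and with at least 10 CPM, and in each 7c fit the gene of lowest p. Akr1b3 matched no identifier. Replicates are separate by label. Whether a number marks 1 mouse in both tissues is not stated. Deviations from the group mean correlated between the liver and kidney of a number by 0.0115 to 0.259, over 0.1 in 7 of 10, so numbers were not used as pairs and relations of a gene's liver and kidney levels were not computed.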

Additional observations from a re-analysis of the deposited data

Results flagged for a closer look

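Within a group of 4 to 10 libraries, a value was singled out where its gap to the nearest other library was a large share of the group's range by Dixon's criterion, which chance meets in about 1 in 20 groups. It was met in 4 of 38 groups of the 10 genes. Gclc in the liver of 7c replicate 2 was lowest at 336 CPM, with the next at 419. Hmox1 in the kidney of 7c replicate 2 was highest at 43.9 CPM, with the next at 32.8. Txnrd1 in the kidney of vehicle replicate 2 was lowest at 129 CPM, with the next at 174. Slc7a11 in the kidney of vehicle replicate 3 was highest at 0.535 CPM (20 counts), with the next at 0.0698.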

How the results depend on the processing

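The counts of genes called (0 of 9 under 7c in liver, kidney and the interaction, 6 of 9 between tissues) were within 1.5 times of these values under each alternative, the replicate block included, which also gave 0, 0, 0 and 6. Hmox1 between tissues was the only single call gained, as given above. No alternative for the tissue comparison left out a scaling between tissues, on which Txnrd1 and Keap1 depended. Over all genes edgeR's quasi-likelihood test called 1 in liver, 0 in kidney and 1 in the interaction, and the alternatives called 0 to 7, 0 to 18 and 0 to 22 (DESeq2 6, 18 and 16). Kidney pairs past the threshold numbered 3 with values centred by treatment, against 1. Signs changed only for log2 values whose 95% interval includes 0, and the cause was not tested. Srxn1 between tissues was 0.0643 with RLE factors, 0.0644 with DESeq2, 0.0116 with limma-voom, 0.0298 without a filter, 0.0089 with the replicate block and -0.062 to 0.16 leaving out each replicate. Osgin1 in liver was 0.15 with the replicate block and -0.41 to 0.11 leaving out replicates. Nqo1 in kidney was 0.0082 without a filter, 0.018 with limma-voom, 0.0066 with both tissues in 1 fit and -0.15 to 0.15 leaving out replicates, and Keap1 in kidney 0.0067 without a filter, 0.0076 with both tissues and -0.059 to 0.055. Other ranges leaving out replicates were -0.045 to 0.12 for Txnrd1 in liver, -0.023 to 0.16 for Hmox1, -0.17 to 0.018 for Gclm, -0.0044 to 0.076 for Srxn1 and -0.082 to 0.055 for Txnrd1 in kidney, and in the interaction -0.26 to 0.062 for Gclc, -0.51 to 0.081 for Hmox1 and -0.12 to 0.10 for Txnrd1. Within a tissue, deviations of 7c and vehicle libraries of 1 number correlated by -0.0641 to 0.293, and between tissues 8 of 10 libraries correlated best with their own number. With canonical lengths 28 of 40 RPKM moved by more than their SD. Depth limits Slc7a11, and Nqo1 in liver rests on 130 to 274 counts.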
